A study of Mus musculus with 12 samples.

Results

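The C/EBP transcription factors (CCAAT/enhancer-binding proteins) described here are 4 genes, Cebpa, Cebpb, Cebpd and Cebpg, of 56980 in the table. They were chosen by family membership after gene IDs were matched to mouse symbols, with Ddit3 left out. Polyadenylated RNA was sequenced from NIH/3T3 cells, an established line of mouse embryonic fibroblasts labelled as WT. Cells were exposed for 8 h to 200 nM carfilzomib (CFZ), an irreversible proteasome inhibitor, to 5 µM doxorubicin (DOX), a DNA-intercalating anthracycline and topoisomerase II poison, to both drugs (CFZ-DOX), or to the vehicle DMSO. Each of the 4 groups had 3 libraries. All groups share 1 cell line and 1 time. The labels do not state whether replicates came from separate cultures. The p-values therefore reflect the spread of these libraries alone, which may be technical.

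C/EBP proteins carry a basic leucine zipper (bZIP), through which they pair with each other or with related factors such as ATF4 and bind DNA. C/EBPβ and C/EBPδ, encoded by Cebpb and Cebpd, act early in adipocyte differentiation and in acute-phase and inflammatory responses, and fibroblasts are a classical setting for both. C/EBPα, encoded by Cebpa, belongs to differentiated adipocytes, hepatocytes and myeloid cells. C/EBPγ, encoded by Cebpg, has no activation domain of its own and is known as a partner of ATF4 in stress-responsive transcription.

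In the deposited annotation (GRCm39), Cebpa (ENSMUSG00000034957, chromosome 7, 34818718 to 34821353, plus strand), Cebpb (ENSMUSG00000056501, chromosome 2, 167530835 to 167532338, plus strand) and Cebpd (ENSMUSG00000071637, chromosome 16, 15705150 to 15708895, plus strand) each have 1 exon block. Cebpg (ENSMUSG00000056216, chromosome 7, 34745847 to 34755998, minus strand) has 3 and lies 62719 bases from Cebpa. Exons of Tmem189 on the other strand cover 312 bases of Cebpb, 20.7% of its exon length, and those of Spidr cover 562 bases of Cebpd, 15%. Whether counting used strand is not given in the sources used here. Reads in these overlaps therefore cannot be assigned to either gene. Tmem189 averaged 17.9 ± 2.51 CPM (counts scaled to the library size) with CFZ, 17.5 ± 0.972 CPM with DOX, 12.8 ± 2.71 CPM with CFZ-DOX and 19 ± 1.27 CPM with DMSO (SD, n = 3 each). It was called lower with CFZ-DOX than with DMSO under TMM (trimmed mean of M values) scaling (log2 −0.57, edgeR adjusted p = 0.00787) and than with CFZ (−0.48, edgeR adjusted p = 0.0198), but was at −0.08 and 0.06 under upper-quartile scaling. Against DMSO it was at −0.12 with DOX (edgeR adjusted p = 0.543), and at −0.98 under ribosomal scaling (edgeR adjusted p = 0.00337). Its part in the Cebpb values was not tested. Spidr averaged 39.2 ± 0.223 CPM with CFZ, 41.5 ± 3.92 CPM with DOX, 41.7 ± 6.16 CPM with CFZ-DOX and 43.9 ± 3.68 CPM with DMSO, and was called in none of the 5 comparisons (lowest edgeR adjusted p = 0.411).

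The 250 bases before the annotated start are shown for Cebpb and Cebpg, the 2 members with the largest changes, from RefSeq on GRCm38.p6. RefSeq entries were matched for 3 of the 4 members, all but Cebpd. Capitals mark matches on either strand. The letters GGGCGG are a GC box, a site of Sp1-like factors. The letters TGACG are the core of sites of CREB and ATF factors. The letters CCAAT are the CCAAT box, classically bound by NF-Y. The TATA box, with the letters TATAAA, was searched for as well. The Cebpb stretch is chr2:167688665-167688914, plus strand, and the Cebpg stretch is chr7:35056567-35056816, minus strand.
Cebpb: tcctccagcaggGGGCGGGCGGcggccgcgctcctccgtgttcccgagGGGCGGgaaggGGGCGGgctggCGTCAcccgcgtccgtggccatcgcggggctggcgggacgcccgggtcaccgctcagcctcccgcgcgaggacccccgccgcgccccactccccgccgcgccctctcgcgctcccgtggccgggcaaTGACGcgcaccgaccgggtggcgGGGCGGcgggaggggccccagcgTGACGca
Cebpg: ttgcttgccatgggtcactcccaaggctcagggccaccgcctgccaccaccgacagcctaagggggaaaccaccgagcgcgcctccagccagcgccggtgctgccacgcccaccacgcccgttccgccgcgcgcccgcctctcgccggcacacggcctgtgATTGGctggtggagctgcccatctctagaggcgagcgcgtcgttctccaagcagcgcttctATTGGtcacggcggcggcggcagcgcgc

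The Cebpb stretch was 81.6% G and C, and that of Cebpg 70.8%, against a median of 52.4% over 32851 RefSeq promoters. The Cebpb stretch held 5 GC boxes, of which 2 overlap each other, and 3 CREB/ATF cores, the nearest 7 bases before the start. Past the start, outside the printed stretches, the letters TATAAA were found at base 22 of Cebpb and GGGCGG at base 45 of Cebpg. The Cebpg stretch held a CCAAT box on the opposite strand, printed as its reverse complement, 89 and 28 bases before the start. Of all promoters, 32.7% held a GC box, 17.8% a CREB/ATF core, 33.8% a CCAAT box and 12.4% a TATA box in the same 250 bases. A match describes the letters and is not a measured binding site.

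Libraries held 28278879 to 42033993 counts. Values are CPM scaled by TMM unless stated. DOX 3 and CFZ-DOX 3 lay apart from the other libraries of their groups on the third principal component (4.64% of variance), at −60.6 against 6.7 and −7.1 for DOX, and at −24.6 against 43 and 32.6 for CFZ-DOX. Marker sums and counts over 1 CPM are by library size, without TMM. Fibroblast markers were present in every group, and 9 of 10 averaged over 1 CPM. Their sum was 12000 to 17000 CPM with CFZ, 27400 to 41600 with DOX, 31800 to 51100 with CFZ-DOX and 21300 to 26400 with DMSO. Of 9 tested under TMM against DMSO, 0 were called higher and 3 lower with CFZ, 3 and 2 with DOX, and 5 and 2 with CFZ-DOX. Under ribosomal scaling these were 0 and 5, 0 and 3, and 0 and 4, so no higher call was kept. Under upper-quartile scaling they were 0 and 3, 5 and 2, and 6 and 2. Pdgfra and Pdgfrb, the 2 lower with DOX and CFZ-DOX under TMM, averaged 161 and 187 CPM with DMSO. They averaged 35.1 and 74.6 CPM with DOX, and 26.9 and 51 with CFZ-DOX. The sum of 5 adipocyte markers was at most 2.34 CPM, of 5 epithelial markers 3.96 CPM and of 5 hepatocyte markers 1.14 CPM in any library. For 5 macrophage markers, of which 2 averaged over 1 CPM in each group, the sum was 3.73 to 4.57 CPM with CFZ, 11.2 to 15.1 with DOX, 17.8 to 27.1 with CFZ-DOX and 4.77 to 7.29 with DMSO. Cd68, Csf1r and Lyz2, the 3 tested, were called higher than with DMSO under TMM both with DOX (2.98-, 3.29- and 2.24-fold) and with CFZ-DOX (9.83-, 5.06- and 3.75-fold), while under ribosomal scaling only Cd68 kept its calls. Csf1r averaged only 0.161 CPM with DMSO and 0.173 with CFZ, against 0.524 with DOX and 0.811 with CFZ-DOX. It passed the filter on low counts through the DOX groups, so its calls are partly set by the filter. Adgre1, also among the 5, was at 0 with DOX and with DMSO but not with CFZ or CFZ-DOX. The part of these markers in the C/EBP values was not tested.

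The 3 C/EBP genes with usable counts separated by drug. Cebpb and Cebpg were lower wherever DOX was present, 33-fold and 8.74-fold lower with DOX alone than with DMSO, and neither was called with CFZ alone. Cebpb was left at under 1 CPM on average and Cebpg at 9.90 CPM. Cebpd was 3.42-fold lower with CFZ than with DMSO and 2.18-fold lower with DOX. Cebpa was at or near 0 counts throughout. These 3 genes passed the filter on low counts and entered a quasi-likelihood F test in edgeR over 16648 genes. Calls are those with a Benjamini-Hochberg adjusted p under 0.05. The comparisons with DMSO share the same DMSO libraries. In bulk RNA, fewer cells with a transcript and less of it per cell cannot be told apart.

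**Figure D1:**
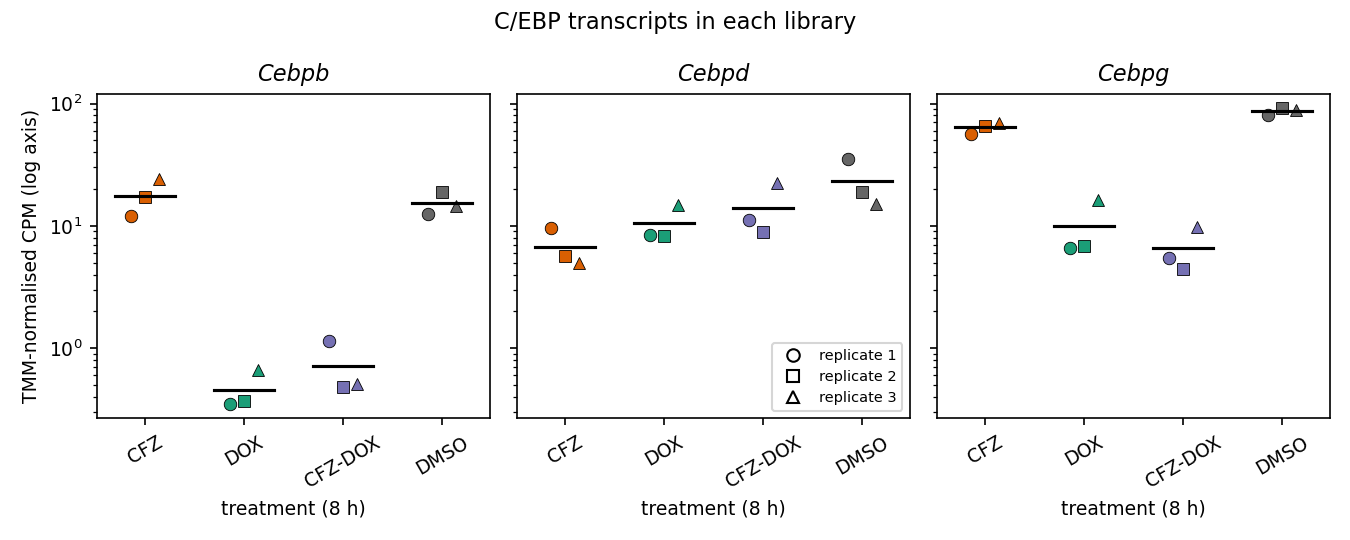
TMM-normalised CPM (log axis) of Cebpb, Cebpd and Cebpg in each library by treatment. Points are libraries, with the replicate number as the symbol, and lines are group means. Every DOX and CFZ-DOX library of Cebpb lies at or below 1.15 CPM, and every CFZ and DMSO library at or above 12 CPM.

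Cebpb, an activator induced early when preadipocytes are pushed towards fat, measured 12, 17.1 and 24 CPM in CFZ libraries 1 to 3 and 0.352, 0.367 and 0.659 CPM in DOX libraries. CFZ-DOX libraries gave 1.15, 0.486 and 0.509 CPM, and DMSO libraries 12.6, 18.8 and 14.7 CPM. DOX and CFZ-DOX lay below every CFZ and DMSO library, while DOX overlapped CFZ-DOX and CFZ overlapped DMSO. Group means were 17.7 ± 6.02 with CFZ, 0.459 ± 0.173 with DOX, 0.715 ± 0.376 with CFZ-DOX and 15.4 ± 3.14 CPM with DMSO (SD, n = 3 each). The low values rest on 12 to 25 reads per DOX library and 12 to 32 per CFZ-DOX library, against 465 to 818 per DMSO library.

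With DOX, Cebpb fell by 5.04 ± 0.38 (log2 fold change ± SE) relative to DMSO (edgeR adjusted p = 8.43e-08), the 7th lowest of the 16648 genes. With CFZ-DOX it fell by 4.41 ± 0.37, 21.3-fold, relative to DMSO (edgeR adjusted p = 1.09e-07), and by 4.62 ± 0.37, 24.5-fold, relative to CFZ (edgeR adjusted p = 6.7e-08). CFZ against DMSO gave 0.20 ± 0.29 (edgeR adjusted p = 0.655), and the sign turned to −0.07 without CFZ 3.

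Cebpd, the partner of Cebpb in early adipogenesis and an acute-phase gene, was widely spread in DMSO (coefficient of variation 46%, against 20.4% for Cebpb and 6.38% for Cebpg). CFZ libraries measured 9.62, 5.63 and 4.99 CPM, and DOX libraries 8.42, 8.28 and 14.9 CPM. CFZ-DOX libraries gave 11.1, 8.87 and 22.3 CPM, and DMSO libraries 35.1, 18.9 and 15.1 CPM. All CFZ and DOX libraries were below all DMSO libraries under TMM, and CFZ-DOX overlapped DOX and DMSO. By library size DOX overlapped DMSO, with 17.53 CPM in DOX 3 and 17.05 in DMSO 3. Means were 6.74 ± 2.51 with CFZ, 10.5 ± 3.80 with DOX, 14.1 ± 7.20 with CFZ-DOX and 23.1 ± 10.6 CPM with DMSO (SD, n = 3 each). DMSO 1 and CFZ-DOX 3 were the highest libraries of their groups.

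Relative to DMSO, Cebpd fell by 1.77 ± 0.40 on the log2 scale with CFZ (edgeR adjusted p = 0.00399) and by 1.13 ± 0.39 with DOX (edgeR adjusted p = 0.0186). The DOX call was lost without DOX 1 (−1), DOX 2 (−0.99) or DMSO 1 (−0.70, edgeR adjusted p = 0.126). CFZ-DOX against DMSO gave −0.71 ± 0.38 (edgeR adjusted p = 0.108) and became a call without CFZ-DOX 3 (−1.21, edgeR adjusted p = 0.0134) or DMSO 3 (−0.96, edgeR adjusted p = 0.0468).

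Cebpg had the highest CPM of the family in CFZ and DMSO. CFZ libraries measured 56.9, 66.0 and 69.4 CPM, and DOX libraries 6.63, 6.85 and 16.2 CPM. CFZ-DOX libraries gave 5.50, 4.45 and 9.85 CPM, and DMSO libraries 80.6, 91.5 and 88.0 CPM. DOX overlapped CFZ-DOX, and both were below every CFZ library, which in turn were below every DMSO library. Group means were 64.1 ± 6.48 with CFZ, 9.90 ± 5.47 with DOX, 6.60 ± 2.86 with CFZ-DOX and 86.7 ± 5.53 CPM with DMSO (SD, n = 3 each).

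Cebpg fell by 3.13 ± 0.33 on the log2 scale with DOX relative to DMSO (edgeR adjusted p = 1.8e-06). It fell by 3.71 ± 0.34, 13.1-fold, with CFZ-DOX relative to DMSO (edgeR adjusted p = 3.13e-07), and by 3.27 ± 0.34, 9.68-fold, relative to CFZ (edgeR adjusted p = 7.75e-07). CFZ against DMSO gave −0.44 ± 0.30 (edgeR adjusted p = 0.315). That difference was a call when only those 6 libraries were fitted (−0.44, edgeR adjusted p = 0.0012).

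Cebpa had 0 counts in every CFZ and DMSO library, 2, 0 and 0 in DOX libraries and 0, 1 and 2 in CFZ-DOX libraries, and was not tested. A count of 0 allows up to 3 counts, 0.0714 to 0.106 CPM by library, which covers counting error only. Cebpe, a granulocyte C/EBP that was not among the 4 members, had 10, 8 and 15 counts in DOX libraries and 10, 11 and 17 in CFZ-DOX libraries, against 0 in all 3 DMSO libraries. The limit that 0 counts allow in a DMSO library is 0.0967 CPM of the library total. The Cebpe mean by library size was 3.26 times this limit with DOX and 4.28 times with CFZ-DOX. These means carry counting error of their own, and other scalings were not applied to these ratios. Genes with any count numbered 25438 to 26809 in DOX libraries, 25622 to 26610 in CFZ-DOX libraries and 21503 to 22345 in DMSO libraries. The excluded relative Ddit3, which encodes the dominant-negative partner CHOP and was taken from the larger of its 2 IDs, averaged 136 ± 13.6 with CFZ, 25 ± 4.65 with DOX, 75.1 ± 39.2 with CFZ-DOX and 35.3 ± 4.23 CPM with DMSO (SD, n = 3 each).

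Of the 4 genes, 3 were tested. With CFZ, 1 of the 3 was called lower than with DMSO, beside 14.4% of all genes tested in each direction and 28.8% in either. With DOX, 3 of 3 were called lower than with DMSO, beside 31.3% of all genes called lower, 36.1% higher and 67.4% in either direction. With CFZ-DOX, 2 of 3 were called lower than with DMSO, beside 35.7% lower, 39.3% higher and 75% in either direction. CFZ-DOX against CFZ had 2 called lower and 1 higher, beside 36.9% lower, 40.4% higher and 77.3% in either direction. CFZ-DOX against DOX had 0 of 3 called with edgeR, DESeq2 or limma-voom, and 0 of 3 at an unadjusted edgeR p under 0.05, beside 12% of genes called lower, 10.3% higher and 22.4% in either direction. In DOX against DMSO, Cebpb ranked 7, Cebpg 119 and Cebpd 2812 from the lowest of 16648.

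**Figure D2:**
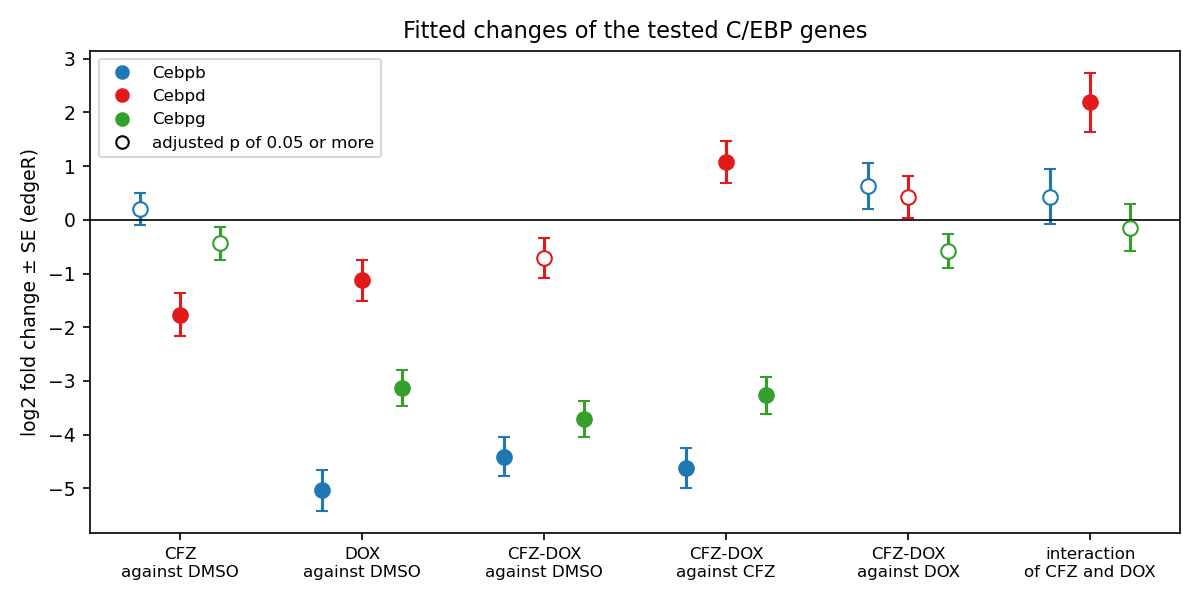
Log2 fold changes ± SE (edgeR) of Cebpb, Cebpd and Cebpg in the 5 comparisons and the interaction, with open points for an adjusted p of 0.05 or more. Cebpb and Cebpg lie at −3.13 or lower in each comparison of a DOX-containing treatment with DMSO or CFZ, and Cebpd is at 1.07 in CFZ-DOX against CFZ.

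**Figure D3:**
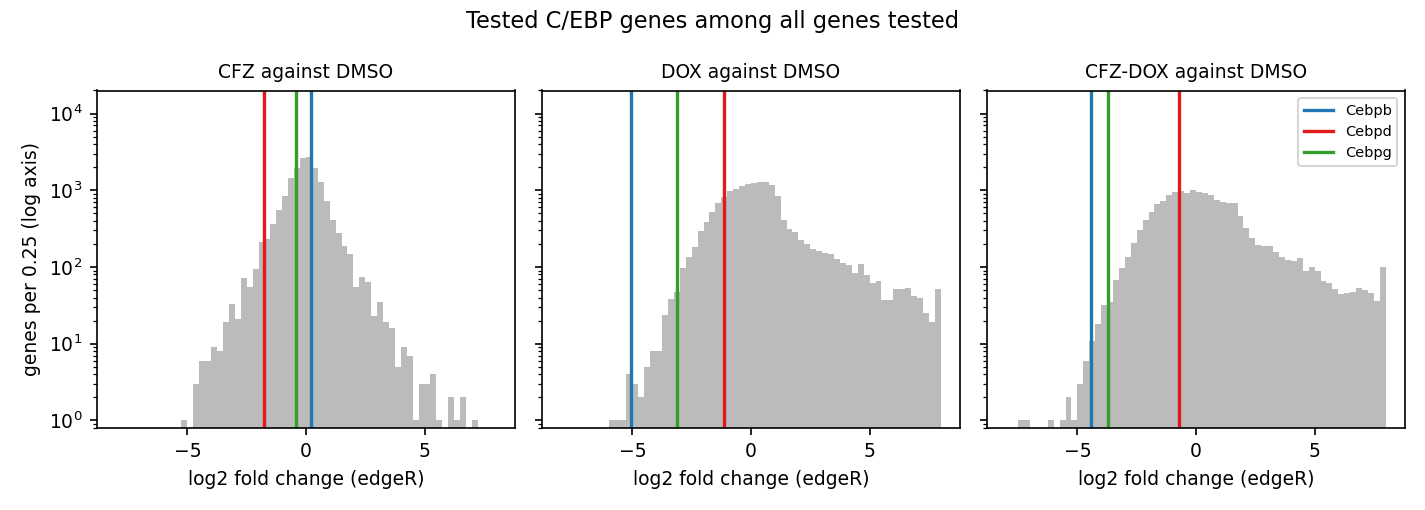
Number of genes per log2 fold change bin (log axis) among all 16648 tested, with vertical lines for the 3 tested C/EBP genes. The outermost bars also hold larger changes. Cebpb and Cebpg sit in the left tail with DOX (−5.04 and −3.13) and CFZ-DOX (−4.41 and −3.71), near the centre with CFZ (0.20 and −0.44).

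The combination was then set against each drug. Cebpd was 2.09-fold higher with CFZ-DOX than with CFZ under TMM (log2 1.07 ± 0.39, edgeR adjusted p = 0.0227), but was at −0.44 under scaling to ribosomal protein genes. The groups overlapped, and the call was lost without CFZ 2 (0.92), CFZ 3 (0.86) or CFZ-DOX 3 (0.56, edgeR adjusted p = 0.193). CFZ-DOX against DOX gave 0.63 ± 0.42 for Cebpb, 0.42 ± 0.39 for Cebpd and −0.58 ± 0.32 for Cebpg (edgeR adjusted p = 0.297, 0.459 and 0.205). Without CFZ-DOX 3, Cebpg was called there (−0.99, edgeR adjusted p = 0.0408) and Cebpd was at −0.08.

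The interaction asks whether the log2 effects of CFZ and DOX alone add up to that of CFZ-DOX, as the combined effect minus their sum. For Cebpd it was 2.19 ± 0.55 (edgeR adjusted p = 0.0134), so 1 of 3 was called, beside 8.46% of all genes called higher, 11.2% lower and 19.6% in either direction. The values of Cebpd with each drug, −1.77 and −1.13, thus did not add up in the combination, at −0.71. The call was lost under library-size scaling (2.09, edgeR adjusted p = 0.0611) and ribosomal scaling (1.51, edgeR adjusted p = 0.125). For Cebpb the interaction was 0.43 ± 0.51 (edgeR adjusted p = 0.588), and for Cebpg −0.15 ± 0.44 (edgeR adjusted p = 0.849).

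The makeup of the family's RNA shifted from Cebpb and Cebpg towards Cebpd wherever DOX was present. To compare genes with each other, CPM was divided by exon length in kb (RPKM). The sum over the 4 genes was 25 ± 4.46 with CFZ, 4.89 ± 2.1 with DOX, 5.42 ± 2.37 with CFZ-DOX and 31.8 ± 2.22 RPKM with DMSO (SD, n = 3 each). Cebpd made up 7.66 ± 4.18% of the sum with CFZ, 58.6 ± 3.49% with DOX, 68.2 ± 5.42% with CFZ-DOX and 19.3 ± 8.6% with DMSO. Cebpb made up 46.2 ± 7.6% with CFZ, 6.33 ± 0.326% with DOX, 9.88 ± 6.03% with CFZ-DOX and 32 ± 5.48% with DMSO. The share of Cebpg was 46.1 ± 3.89% with CFZ, 34.9 ± 3.97% with DOX, 21.7 ± 0.95% with CFZ-DOX and 48.7 ± 4.28% with DMSO. By RPKM the order was Cebpd, Cebpg, Cebpb with DOX (2.82, 1.76 and 0.305) and with CFZ-DOX (3.76, 1.17 and 0.475), and Cebpg, Cebpb, Cebpd with DMSO (15.4, 10.2 and 6.16). With CFZ, Cebpb (11.8) and Cebpg (11.4) did not differ beyond their spread.

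**Figure D4:**
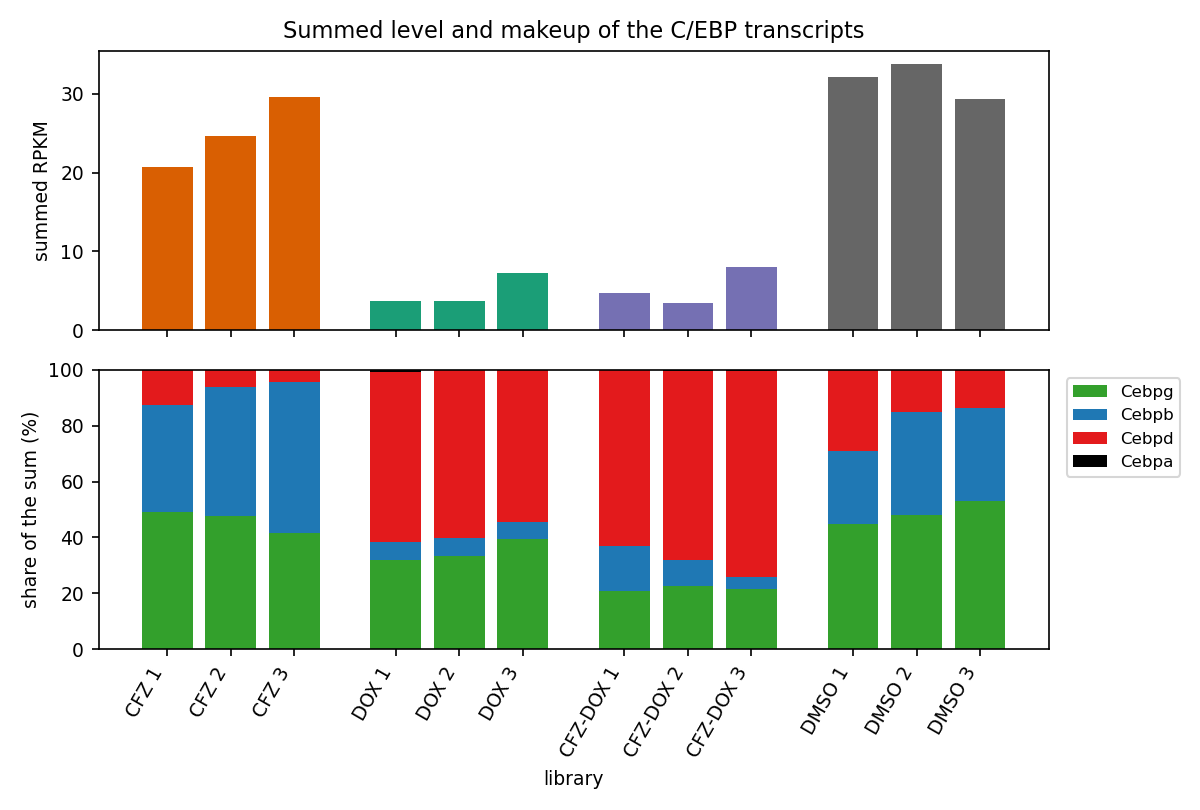
Summed RPKM of the 4 C/EBP genes (top) and the share of each gene in the sum in percent (bottom), 1 bar per library. The DOX and CFZ-DOX sums average 4.89 and 5.42 RPKM against 31.8 with DMSO, and Cebpd holds most of the remainder (58.6% and 68.2%).

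A ratio of 2 genes within a library does not depend on the scaling between libraries. Cebpd to Cebpb was 0.322, 0.132 and 0.0834 in CFZ libraries and 9.61, 9.07 and 9.11 in DOX libraries. It was 3.88, 7.33 and 17.6 in CFZ-DOX libraries and 1.12, 0.405 and 0.415 in DMSO libraries. DOX and CFZ-DOX were thus above every other library, and CFZ below every DMSO library. The ratio was 16.2-fold higher with DOX and 13.9-fold higher with CFZ-DOX than with DMSO, and 3.75-fold lower with CFZ. Cebpd to Cebpg was 4.5-fold higher with DOX and 8.37-fold higher with CFZ-DOX than with DMSO, and 2.47-fold lower with CFZ, each without overlap. Cebpb to Cebpg was 3.59-fold lower with DOX than with DMSO without overlap, and 1.66-fold lower with CFZ-DOX with overlap (exact two-sided permutation p = 0.4). Each of these ratios without overlap had an exact two-sided permutation p = 0.1, the smallest that 3 against 3 allows, and 0.125 after adjustment over the 15 comparisons, so none could pass 0.05.

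The scaling between libraries changes the size of these values. The 77 ribosomal protein genes took 3.91 to 4.4% of counts with CFZ, 6.71 to 7.27% with DOX, 9.99 to 10.6% with CFZ-DOX and 3.98 to 4.32% with DMSO. Setting them equal moved the median of all genes by −0.87 with DOX and −1.64 with CFZ-DOX relative to DMSO, and upper-quartile scaling moved it by 0.38 and 0.50. Cebpb and Cebpg were called lower with DOX and with CFZ-DOX under all 5 scalings (TMM, DESeq2 size factors, library size, upper quartile and ribosomal protein genes). Cebpd with DOX was called under 4, and was at −0.76 under upper-quartile scaling (edgeR adjusted p = 0.0748). Cebpd with CFZ-DOX was called lower than DMSO only under ribosomal scaling (−2.31, edgeR adjusted p = 0.0012). Which scaling matches RNA per cell was not tested.

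**Figure D5:**
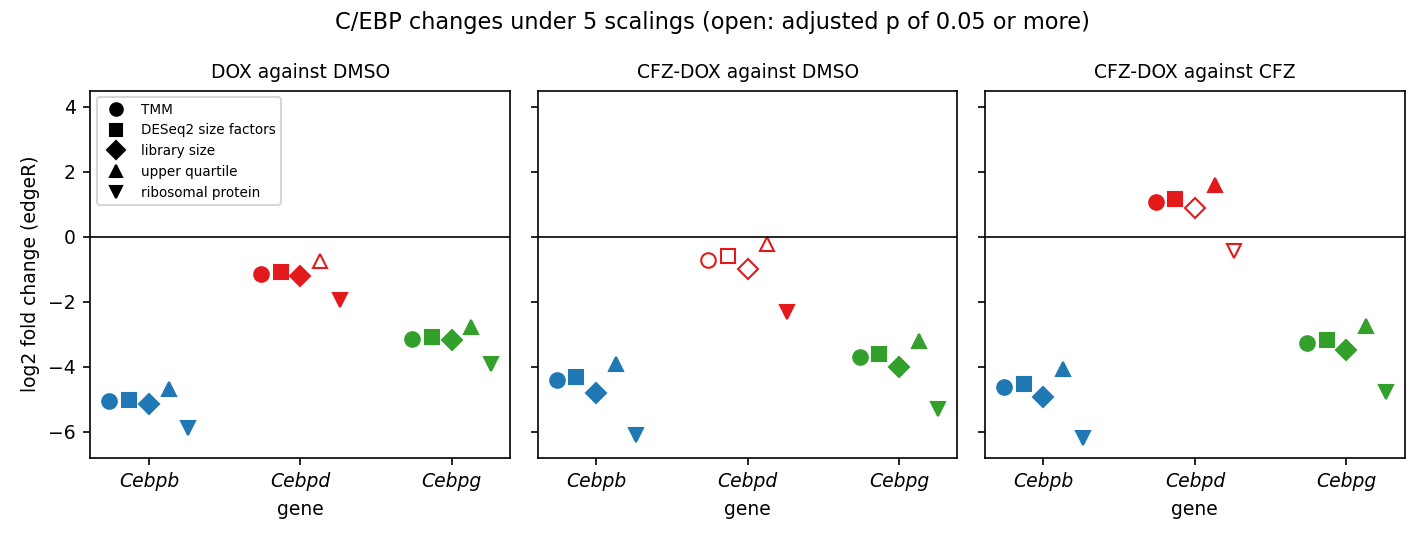
Log2 fold changes (edgeR) of Cebpb, Cebpd and Cebpg under 5 scalings in 3 comparisons, with open symbols for an adjusted p of 0.05 or more. Cebpb and Cebpg stay filled and below 0 throughout, while Cebpd in CFZ-DOX against CFZ is at 1.07 under TMM and −0.44 under ribosomal scaling.

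The genes most like each member were those with the smallest root mean square difference of centred log2 CPM over the 12 libraries, among 9369 candidates. This likeness follows the treatments that all libraries share and is a description. For Cebpb they were Zfp90 (0.53), Zbtb45 (0.559) and Champ1 (0.561), all zinc finger genes. Zfp90 averaged 14.5 with CFZ, 0.682 with DOX, 0.797 with CFZ-DOX and 11.2 CPM with DMSO. For Cebpg they were closer: Mphosph10 (0.216), of the U3 snoRNP of ribosome assembly, Filip1l (0.22) and Zfp322a (0.223). Filip1l averaged 59.9 with CFZ, 8.49 with DOX, 7.51 with CFZ-DOX and 84.5 CPM with DMSO. For Cebpd they were Kif22 (0.391), a mitotic kinesin, Amd1 (0.413), an enzyme of polyamine synthesis, and Ccdc85b (0.435). Amd1 averaged 83.3 with CFZ, 125 with DOX, 132 with CFZ-DOX and 265 CPM with DMSO. Within the family, Cebpb and Cebpg differed by 0.885, Cebpd and Cebpg by 1.76, and Cebpd and Cebpb by 2.46.

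The lists of related genes are read against all genes tested, of which 14.4% were called higher and 14.4% lower with CFZ, 36.1% and 31.3% with DOX, and 39.3% and 35.7% with CFZ-DOX. Of 15 bZIP genes that can pair with C/EBP proteins or compete for their sites, 14 were tested. With DOX, 7 were called lower and 2 higher than with DMSO (10 and 1 under ribosomal scaling, 6 and 4 under upper-quartile scaling), with a median log2 fold change of −0.68 against 0.14 over all genes. Atf4, the stress factor that pairs with C/EBPγ, averaged 59.5 ± 7.41 with DOX and 618 ± 46.6 CPM with DMSO and fell by 3.38 (edgeR adjusted p = 1.03e-08). It averaged 84.7 ± 18 CPM with CFZ-DOX, a fall of 2.87 against DMSO (edgeR adjusted p = 1.13e-08). Jun, an AP-1 subunit, fell by 1.85 with DOX (60.3 ± 16.7 CPM with DOX, 217 ± 72 CPM with DMSO, edgeR adjusted p = 0.000147). With CFZ-DOX, 6 were lower and 3 higher (10 and 1 under ribosomal, 3 and 6 under upper-quartile scaling). The median was −0.33 against 0.09 over all genes. It was 0.17 against 0.59 under upper-quartile scaling and −1.97 against −1.55 under ribosomal scaling.

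Fos, another AP-1 subunit, rose with DOX (16.9 ± 5.9 CPM with DOX, 1.96 ± 2.32 CPM with DMSO, log2 3.12, edgeR adjusted p = 0.0155), a call lost without DMSO 2 or DMSO 3, and the value was 4.76 without DMSO 1. With CFZ-DOX it reached 40.8 ± 24.2 CPM (log2 4.39, edgeR adjusted p = 0.00258), and 6.03 without DMSO 1. With CFZ, 4 of the 14 bZIP genes were called higher and 3 lower (2 and 2 under library-size and under ribosomal scaling), beside 14.4% of all genes each way, with a median of 0.10 against −0.01 over all genes. Atf3, a stress-induced repressor, averaged 139 ± 16 with CFZ and 5.54 ± 0.318 CPM with DMSO (log2 4.65, edgeR adjusted p = 2.95e-06), and Ddit3 rose 3.85-fold. Atf5 fell 2.28-fold with CFZ (edgeR adjusted p = 0.00529), and Jund 2.13-fold (0.0314 in edgeR), a call lost without any 1 of the 6 libraries and under library-size and ribosomal scaling. Atf3 was also higher with DOX (log2 1.05) and CFZ-DOX (1.93 under TMM, 1.28 without CFZ-DOX 3), both lost under ribosomal scaling (0.25 and 0.35), and with DOX also under library-size scaling and without DOX 3, DMSO 1, DMSO 2 or DMSO 3. Jund was lower with CFZ-DOX (−1.23, −1.89 without CFZ-DOX 3), a call lost under upper-quartile scaling.

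Of 18 genes known to control C/EBP levels or activity, 17 were tested, and 13 were called lower and 2 higher with DOX than with DMSO (15 and 0 under ribosomal scaling, 8 and 3 under upper-quartile scaling). The median was −0.93 against 0.14 over all genes. With CFZ-DOX, 13 were lower and 2 higher (15 and 0, and 9 and 2). Trib3, a pseudokinase that binds ATF4 and other partners, averaged 5.31 ± 1.43 with DOX and 63.5 ± 4.88 CPM with DMSO, an 11.9-fold fall (edgeR adjusted p = 4.18e-08), and 4.37 ± 1.67 CPM with CFZ-DOX. Trib1, which targets C/EBPα for degradation through COP1, fell 5.99-fold with DOX (12.2 ± 3.39 CPM with DOX, 73.3 ± 16.8 CPM with DMSO, edgeR adjusted p = 3.08e-06), and Trib2, which does the same, 5.96-fold with CFZ-DOX (6.02 ± 2.42 CPM with CFZ-DOX, 36 ± 6.75 CPM with DMSO, edgeR adjusted p = 3.71e-06). Calr and Mapk3, encoding calreticulin and the kinase ERK1, were called higher with DOX under TMM (log2 0.96 and 0.90) but were at 0.07 and −0.02 under ribosomal scaling. With CFZ-DOX they were at 1.54 and 1.38 under TMM and at −0.13 and −0.31 under ribosomal scaling. With CFZ, 1 was higher and 2 lower (0 and 2 under ribosomal, 0 and 3 under library-size scaling). Trib2 fell 2.93-fold (edgeR adjusted p = 0.00136), while the calls of Trib3 (log2 0.65) and Stat3 (−0.51) were lost in 6 and 3 of the 6 fits that left out a library and under ribosomal scaling, and that of Trib3 also under library-size scaling.

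Of 19 adipogenic genes, 9 were tested. With CFZ 1 was higher and 1 lower (0 and 2 under library-size and under ribosomal scaling), beside 14.4% of all genes each way. With DOX 2 were higher and 1 lower (7 and 1 under upper-quartile, 2 and 4 under ribosomal scaling), beside 36.1% and 31.3%. With CFZ-DOX 6 were higher and 2 lower (7 and 1, and 2 and 5), beside 39.3% and 35.7%. The medians were 0.13, 0.47 and 0.94, against −0.01, 0.14 and 0.09 over all genes. They turned to −0.33 with DOX and −0.79 with CFZ-DOX under ribosomal scaling, against −0.73 and −1.55 over all genes. Cidec, 1 of the 2 called higher with DOX, averaged 0.00765 CPM with DMSO, 0.0285 with CFZ and 0.648 with DOX. It passed the filter through the DOX groups. Klf4, which activates Cebpb early in adipogenesis, fell 6.07-fold with DOX (57.8 ± 13.3 CPM with DOX, 351 ± 16.8 CPM with DMSO, edgeR adjusted p = 2.87e-07) and 5.06-fold with CFZ-DOX. Dgat2, the enzyme of the last step of triglyceride synthesis, rose 7.83-fold with DOX (47 ± 11.6 CPM with DOX, 6 ± 0.436 CPM with DMSO, edgeR adjusted p = 3.38e-08) and 8.99-fold with CFZ-DOX. Its rise with CFZ (log2 0.66, edgeR adjusted p = 0.0177) was lost without CFZ 2, CFZ 3, DMSO 1 or DMSO 3 and under library-size and ribosomal scaling. Egr2, another activator of Cebpb, was higher with CFZ-DOX (log2 3.25, edgeR adjusted p = 0.0182), a call lost without DMSO 2 and under ribosomal scaling, with 5.16 without DMSO 1. Acsl1 was lower with CFZ-DOX under TMM (−0.48) and at 0.02 under upper-quartile scaling.

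Of 18 acute-phase and inflammatory genes, 10 were tested. With CFZ 4 were higher (3 under library-size and under ribosomal scaling), beside 14.4% of all genes. With DOX 5 were higher and 3 lower (5 and 1 under upper-quartile, 4 and 3 under ribosomal scaling), beside 36.1% and 31.3%. With CFZ-DOX 6 were higher and 2 lower (8 and 2 under upper-quartile, 3 and 2 under ribosomal scaling), beside 39.3% and 35.7%. The medians were 1.24, 2 and 1.92, against −0.01, 0.14 and 0.09 over all genes. Under ribosomal scaling they were 1.17, 1.11 and 0.26, against −0.11, −0.73 and −1.55. Hp and Csf3 averaged 0.0448 and 0.023 CPM with DMSO, 0.0105 and 0.0325 with CFZ, and 1.3 and 1.18 with DOX. Both were called higher with DOX after passing the filter through the DOX groups, so counts and medians there are partly set by the filter. Il6 and Orm2, also called higher with DOX, averaged 0.415 and 1.53 CPM with DOX, and 0.0991 and 0.371 with DMSO. Il6, at 0.575 CPM with CFZ and called higher there too, passed the filter through the treated groups. Its calls are thus also partly set by the filter. Ptgs2, the inducible cyclooxygenase, averaged 880 ± 178 with CFZ, 477 ± 196 with DOX, 627 ± 177 with CFZ-DOX and 119 ± 56.8 CPM with DMSO, higher in each (log2 2.88, 2 and 2.39, edgeR adjusted p = 6.89e-05, 0.000238 and 3.84e-05), with the last call lost under ribosomal scaling (0.71). Ccl2, a monocyte chemokine, rose with CFZ (291 ± 230 CPM with CFZ, 30.1 ± 12.6 CPM with DMSO, log2 3.27, edgeR adjusted p = 0.00132), 2.42 without CFZ 1. Cxcl5, a neutrophil chemokine, fell with DOX (−1.89, and −2.62 without DOX 1) and with CFZ-DOX (−2.33, edgeR adjusted p = 0.000239). Cxcl1 was lower with DOX (−1.78, edgeR adjusted p = 0.0182), a call lost without DOX 2 or DOX 3 and under upper-quartile scaling. Ptx3 fell with CFZ-DOX (−1.45, edgeR adjusted p = 0.000274).

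All 16 genes of a list of amino acid and glutathione genes drawn up around ATF4 were tested. Whether ATF4 drove any change in them was not tested. Atf4 itself averaged 665 ± 82.6 CPM with CFZ and 618 ± 46.6 CPM with DMSO (log2 0.11, edgeR adjusted p = 0.692). Asns (0.13), Phgdh (−0.15) and Slc7a5 (−0.03) were among the genes not called with CFZ. Cbs averaged 0.0353 CPM with DMSO, 0.0761 with CFZ and 0.455 with DOX, and passed the filter through the DOX groups. With CFZ 8 were higher and 1 lower (7 and 1 under library-size and under ribosomal scaling, median 0.80 against −0.01 over all genes), with DOX 6 higher and 5 lower (1 and 13 under ribosomal, 9 and 4 under upper-quartile scaling), and with CFZ-DOX 5 higher and 6 lower (1 and 15, and 9 and 3). Slc7a11, the cystine transporter, rose 10.1-fold with CFZ (480 ± 33.5 CPM with CFZ, 47.7 ± 7.61 CPM with DMSO, edgeR adjusted p = 2.19e-08), and Gclm, of glutathione synthesis, 4.63-fold (edgeR adjusted p = 9.91e-08). Psat1 was lower with CFZ (−0.60), a call lost without CFZ 1, CFZ 3, DMSO 2 or DMSO 3. Chac1, which degrades glutathione, fell 8.65-fold with DOX (3.61 ± 1.87 CPM with DOX, 31.4 ± 3.15 CPM with DMSO, edgeR adjusted p = 8.39e-07) and 11.2-fold with CFZ-DOX. Ddit4, an inhibitor of mTORC1, fell 2.5-fold with DOX (edgeR adjusted p = 0.00152), and Vldlr 3.13-fold with CFZ-DOX (edgeR adjusted p = 4.86e-06). Phgdh, of serine synthesis, was called higher with DOX (0.72) and CFZ-DOX (1.34) under TMM and was at −0.16 and −0.31 under ribosomal scaling. Mthfd2 with DOX (0.53) and Slc3a2 with CFZ-DOX (0.86) likewise turned to −0.36 and −0.79, and the Mthfd2 call was also lost under library-size scaling and without DOX 1, DOX 2, DMSO 1 or DMSO 3.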

How the data were processed

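Gene expression was measured by polyA RNA-seq in 12 libraries, 3 per group, as their titles group them. Raw counts per gene, as the authors deposited them, came in 1 table with coordinates on GRCm39. The submitters' processing notes name STAR 2.7.9a, Trimmomatic 0.39 and, from Subread 2.0.2, featureCounts. The annotation release, strand setting and handling of read pairs are not given in the sources used here. Symbols from an annotation used for names matched 52073 of 56980 IDs (91.4%).

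Genes passing filterByExpr (minimum count 10, minimum total 15) were tested with edgeR 4.0.16 in R 4.3.3 (robust quasi-likelihood, TMM, 1 model of 12 libraries) and called at an adjusted p under 0.05. Standard errors are the absolute log2 fold change over the square root of F. Likeness profiles used a pseudocount of 0.125. DESeq2 1.42.0 and limma 3.58.1 (voom) were alternatives. The procedure was tested on simulated data. There, edgeR recovered 56.7% of 2-fold and 91% of 4-fold changes in CFZ against DMSO, and 22.8% and 79.5% in the interaction. Small effects without a call are thus not shown to be absent. The simulation changed few genes, 90 by 2-fold and 89 by 4-fold of 14519 in CFZ against DMSO. In the data 28.8% were called there, and more with DOX, so these rates may not carry over. No replicates agreed within sampling noise (chi-square per degree of freedom 8.443 or more).

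Same-numbered libraries deviated together by over 0.1 in every pair for CFZ against DMSO (r 0.48 to 0.59), DOX against DMSO (0.18 to 0.35) and CFZ-DOX against DOX (0.52 to 0.75), which comes from the data and not from the labels. The comparisons of CFZ-DOX with DMSO and with CFZ fell below in 1 pair each (0.06 and 0.08).

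All 4 members and Cebpe, Cebpz and Ddit3 (by level) are named. From each gene list and treatment, up to 2 called genes per direction were named, with the largest change among those of mean 5 CPM or more whose groups do not overlap, and the 3 nearest profiles per member. The members and lists were chosen with earlier results of these data known.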

Additional observations from a re-analysis of the deposited data

Results flagged for a closer look

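The interaction of CFZ and DOX on Cebpd was 2.19 ± 0.55 on the log2 scale (edgeR adjusted p = 0.0134). It stands out because the effect of CFZ on this gene differed by whether DOX was present. CFZ against DMSO was at −1.77 (edgeR adjusted p = 0.00399), and CFZ-DOX against DOX was at 0.42 (edgeR adjusted p = 0.459). The value was 1.69 to 2.52 when each of the 12 libraries was left out, and the call held in each of these fits. It was lost under library-size scaling (2.09, edgeR adjusted p = 0.0611) and ribosomal scaling (1.51, edgeR adjusted p = 0.125).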

How the results depend on the processing

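Cebpb and Cebpg lower in DOX and in CFZ-DOX against DMSO and in CFZ-DOX against CFZ, and Cebpd lower in CFZ against DMSO, held under every alternative run. Of log2 fold changes under an alternative, 301 kept direction and call, 14 lost and 10 gained the call and 11 changed sign. At an adjusted p under 0.01, Cebpd was no call in DOX against DMSO (−1.13), CFZ-DOX against CFZ (1.07) and the interaction (2.19, 0 members called). Under library-size scaling, Cebpd was at 0.89 against CFZ and 2.09 in the interaction (0 called), and Cebpg averaged 95.7 CPM in DMSO. Under upper-quartile scaling, Cebpd was at −0.76 in DOX against DMSO and the Cebpg interaction at 0.02. Under ribosomal scaling, Cebpd was at −2.31 against DMSO, −0.44 against CFZ and −0.36 against DOX in CFZ-DOX, Cebpb at −0.21 and Cebpg at −1.40 against DOX (1 called), and the interactions of Cebpb and Cebpd at −0.31 and 1.51 (0 called). With no filter, CFZ-DOX gave −0.75 for Cebpd against DMSO and −0.64 for Cebpg against DOX (1 called). With the 6 libraries compared only, Cebpg in CFZ against DMSO (−0.44) made 2 called. Causes were not tested.

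Leaving out each library, Cebpd ranged from −1.37 to −0.70 in DOX against DMSO, and in CFZ-DOX from −1.21 to −0.30 against DMSO, 0.56 to 1.38 against CFZ and −0.08 to 0.71 against DOX. Cebpg ranged from −0.99 to −0.07 in CFZ-DOX against DOX (0 to 1 called) and its interaction from −0.56 to 0.40, positive without DOX 3 or CFZ-DOX 2. Cebpb ranged from −0.07 to 0.43 in CFZ against DMSO, and its interaction from −0.11 to 0.78, negative without CFZ-DOX 1. The ratio of Cebpd to Cebpb in CFZ-DOX against DOX ranged from −0.80 to 0.29, positive without CFZ-DOX 1. Without both DOX 3 and CFZ-DOX 3, chosen after seeing the data, Cebpd was at −1.27 against DMSO and 0.54 against CFZ in CFZ-DOX, Cebpg at −0.46 against DOX (1 called), and its interaction at 0.01. Leaving out libraries for genes of the lists was also added after seeing the data.

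The replicate block changed no call of a member (the Cebpd interaction was 2.16, edgeR adjusted p = 0.00386). Over all genes it called 2356 higher and 2675 lower in the interaction, against 1408 and 1862 without it. Other counts that moved by over 1.5 times were, as higher and lower, in CFZ against DMSO (2402 and 2395) 1456 and 1371 at 0.01 and 3918 and 4007 with 6 libraries; in CFZ-DOX against DOX (1722 and 2005) 586 and 991 at 0.01, 461 and 657 with 6 libraries and 127 and 8778 under ribosomal scaling; and in the interaction 492 and 901 at 0.01, 250 and 5194 under ribosomal scaling, 792 and 1357 without CFZ 3, and 2619 and 3117 without DOX 3 and CFZ-DOX 3. Depth limits Cebpa and Cebpe, with at most 2 and 17 counts per library.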

Other observations

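Cebpz carries the family symbol but encodes a nucleolar protein without a bZIP domain. It averaged 134 ± 12.7 with CFZ, 41.3 ± 3.97 with DOX, 34.6 ± 3.44 with CFZ-DOX and 118 ± 10.5 CPM with DMSO (SD, n = 3 each), and its DOX and CFZ-DOX libraries lay below those of CFZ and DMSO.

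Cebpb and Cebpd have 1 exon block, as do 2537 of the genes tested. Of these, 376 (14.8%) were called lower and 1265 higher with DOX than with DMSO, with a median log2 fold change of 0.82 against 0.14 over all genes. With CFZ-DOX, 415 (16.4%) were lower and 1482 higher. The filter on low counts also passes genes with counts in the DOX groups alone. The part of such genes in the median of 0.82 was not tested. Cebpb and Cebpd had counts in DMSO, so this median is not used as a backdrop for them.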
